A study of Homo sapiens with 36 samples.

Results

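The nucleotide synthesis and salvage genes are 36 of the 57820 genes in the count table. They were chosen by name for what their products do, with earlier results of these data known. They comprise 12 genes of de novo purine synthesis, 5 of purine salvage and GMP phosphorylation, 8 of pyrimidine synthesis and uridine use, 2 nucleoside diphosphate kinases and 9 of dNTP supply and removal. RNA was sequenced from A2780 cells, a human ovarian cancer line, in 12 conditions with 3 libraries each. The cells were wild type (wt), a cisplatin-resistant isogenic analogue made by chronic exposure of the parent to cisplatin (cis), or cis cells that had regained activity of the serine synthesis pathway (cis SSP). As the study describes, cis SSP cells came out of cis cells kept without serine and glycine. Both cis and cis SSP are thus selected populations, and the labels name no independent derivations of a line. Medium either held serine and glycine or lacked both (-SG), and each medium was used with and without carboplatin (carbo). The labels write 6 M for its dose. The study used 6 µM in its tracer experiments, and its RNA-seq methods name no dose. Legends of the study speak of technical replicates, so a p-value measures only the spread among 3 such libraries, which may be technical. In the column names, cis SSP libraries carry the same index sequences as wt libraries. The running numbers there form a separate block for each line. What a block stands for is not given, so line and block cannot be told apart.

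De novo purine synthesis builds the purine ring on phosphoribosyl pyrophosphate and uses glycine and one-carbon units that serine and glycine supply, while de novo pyrimidine synthesis builds its ring from glutamine and aspartate. Salvage enzymes recycle bases and nucleosides. Ribonucleotide reductase then turns ribonucleotides into the deoxyribonucleotides that cells need for replication and repair, and thymidylate synthase makes dTMP with a one-carbon unit from folate. Many dNTP genes are known to be transcribed mainly around S phase. Carboplatin forms DNA crosslinks.

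Libraries held 13074937 to 20441582 counts on genes, and the 36 members took 0.402% to 0.621% of them. All 36 members passed the filter on low counts in every comparison, with 17 or more counts in each library, and 35 of them had 130 or more. Levels are CPM, counts scaled by TMM over all 36 libraries to one common library size, and only levels divided by the length of the canonical transcript (CPM per kb) are compared between genes. Log2 changes and folds come from fits scaled on the libraries of each comparison, so they can differ from ratios of the printed levels. NME2 was the exception with 17 to 58 counts, and it shares 24.2% of its exon bases with the readthrough gene NME1-NME2, which is listed at 0 in every library. Values for NME1 and NME2 are therefore uncertain, as are those of TYMS, which shares 39.9% of its exon bases with ENOSF1 on the opposite strand. Library 1 of cis SSP and library 2 of cis SSP -SG stood apart from the others of their condition. The Spearman correlation of their deviations with transcript length was -0.67 and -0.66, against 0.62 to 0.64 in the other libraries of both conditions, and short members such as TK1, DTYMK and NME1 were high in both. Library 2 of wt -SG carbo had a value of -0.61, against 0.50 and 0.46. Blood cell markers and the endothelial CDH5 reached at most 4 counts in a library. The epithelial markers EPCAM and CDH1 stayed at or under 2.31 and 0.324 CPM and the keratins KRT8 and KRT19 at or under 6.55 and 7.92 CPM, while KRT18 had a median of 14.25 CPM and a maximum of 42.2 CPM. The Müllerian markers PAX8, WT1 and MUC16 were at or under 0.631, 1.38 and 0.177 CPM. PAX2 had a median of 0.108 CPM and a maximum of 205.5 CPM. The mesenchymal VIM and CDH2 reached 4742 and 1395 CPM, with medians of 2002 and 200.5 CPM. Of the fibroblast markers, COL1A1 reached 1014, COL1A2 777.9 and DCN 27.7 CPM, with medians of 12.45, 0.634 and 0.502 CPM. The part of these genes in the results was not tested.

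Promoter windows are shown for 6 members on which the results turn. They include both ribonucleotide reductase subunits, whose carboplatin responses differed in size in wt and cis SSP cells. The others are TYMS and DCK of the dNTP branch, PRPS2, which differed most between cis and wt, and UPP1, which rose most. The sequences are RefSeq promoters of build GRCh38.p14, from 250 bases before to 50 bases after the start site, written 5′ to 3′ on the gene's strand. Capitals mark matches to 4 kinds of motif on either strand: an E2F type (TTTCCCGC, TTTGGCGC, TTTCGCGC or TTTGCCGC), the E-box CACGTG, an ATF4 type (TGATGNAA) and the CCAAT box.

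RRM1, chr11:4094435-4094734 (+): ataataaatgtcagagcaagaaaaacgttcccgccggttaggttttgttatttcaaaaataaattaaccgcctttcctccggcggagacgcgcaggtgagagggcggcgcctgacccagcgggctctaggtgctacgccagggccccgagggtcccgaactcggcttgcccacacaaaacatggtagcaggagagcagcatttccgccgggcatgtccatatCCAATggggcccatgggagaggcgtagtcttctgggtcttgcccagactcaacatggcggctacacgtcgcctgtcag

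RRM2, chr2:10122489-10122788 (+): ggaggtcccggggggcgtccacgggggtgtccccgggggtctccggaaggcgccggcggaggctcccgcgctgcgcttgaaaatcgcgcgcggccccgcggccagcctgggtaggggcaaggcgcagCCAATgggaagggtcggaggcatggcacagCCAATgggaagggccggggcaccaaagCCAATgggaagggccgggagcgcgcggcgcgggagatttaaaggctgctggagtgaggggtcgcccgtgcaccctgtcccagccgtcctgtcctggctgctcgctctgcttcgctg

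TYMS, chr18:657403-657702 (+): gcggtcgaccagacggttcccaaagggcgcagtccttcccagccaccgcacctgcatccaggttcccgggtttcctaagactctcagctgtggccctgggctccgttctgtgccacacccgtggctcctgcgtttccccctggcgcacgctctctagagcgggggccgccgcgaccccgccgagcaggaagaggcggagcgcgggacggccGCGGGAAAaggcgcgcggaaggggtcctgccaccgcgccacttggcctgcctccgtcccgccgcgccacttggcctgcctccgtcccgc

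DCK, chr4:70993399-70993698 (+): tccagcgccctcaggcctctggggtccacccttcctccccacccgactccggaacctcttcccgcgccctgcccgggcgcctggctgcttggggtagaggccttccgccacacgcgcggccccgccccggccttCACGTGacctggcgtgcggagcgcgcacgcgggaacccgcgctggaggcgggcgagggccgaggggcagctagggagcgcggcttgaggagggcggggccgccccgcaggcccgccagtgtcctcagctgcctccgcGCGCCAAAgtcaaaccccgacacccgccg

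PRPS2, chrX:12791162-12791461 (+): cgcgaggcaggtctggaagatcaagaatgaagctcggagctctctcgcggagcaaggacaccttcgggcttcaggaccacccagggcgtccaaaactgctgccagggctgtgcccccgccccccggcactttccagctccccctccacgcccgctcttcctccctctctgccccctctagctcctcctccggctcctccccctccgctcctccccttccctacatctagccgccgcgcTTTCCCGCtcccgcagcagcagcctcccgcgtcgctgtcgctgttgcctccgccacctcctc

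UPP1, chr7:48089004-48089303 (+): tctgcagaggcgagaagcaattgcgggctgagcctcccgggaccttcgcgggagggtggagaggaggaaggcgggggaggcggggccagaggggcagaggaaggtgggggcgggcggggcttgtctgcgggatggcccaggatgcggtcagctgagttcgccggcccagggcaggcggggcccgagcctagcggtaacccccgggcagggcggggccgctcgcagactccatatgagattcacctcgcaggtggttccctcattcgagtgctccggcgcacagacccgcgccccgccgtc

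The window of RRM2 held the CCAAT box 3 times, at -123, -93 and -66 bases from the start site. Of all 35116 promoters in the table, 3.26% held it 3 or more times. RRM1 held it once at -28. TYMS had an E2F-type match at -39, PRPS2 at -12, and DCK at 22, with an E-box at -116. The UPP1 window held none of the 4. Of the 34 members with a promoter in the table (ADSL and IMPDH2 had none), 3 held an E2F type against 3.31% of all promoters, 5 an E-box against 7.26%, 1 an ATF4 type against 3.62%, and 12 a CCAAT box against 34.6%. For the 13 members with several listed starts the first was read. A match describes letters in the window, not a site in use.

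**Figure D1:**
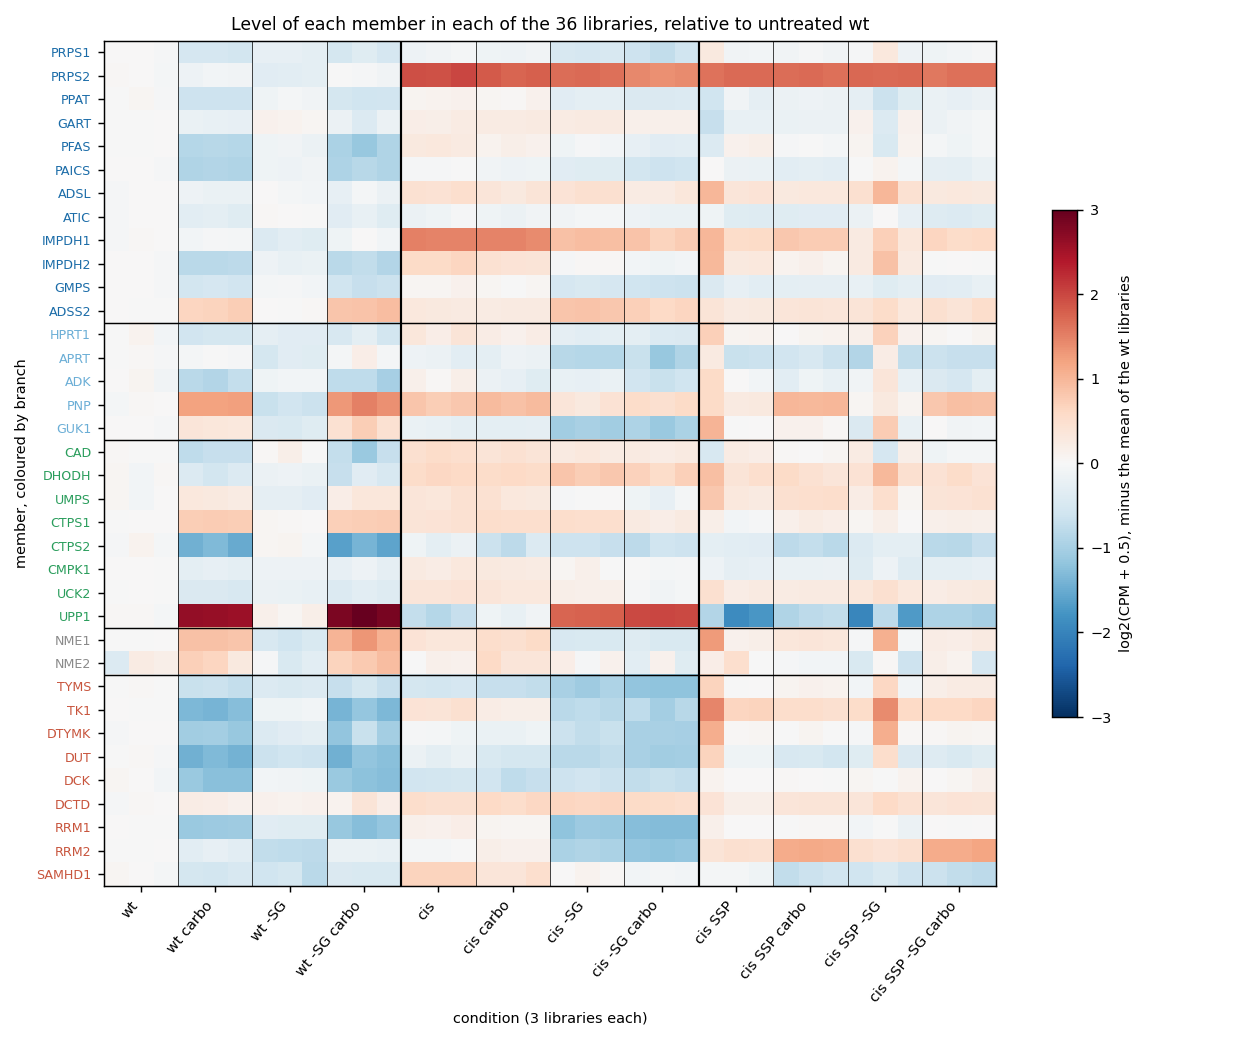
Heat map of the 36 members (rows, coloured by branch) in the 36 libraries (columns, 3 for each condition). Colour is the log2 of CPM + 0.5 minus the mean of the wt libraries, with the scale ending at 3 in both directions. UPP1 stands out in wt cells with carboplatin and cis cells without serine and glycine, PRPS2 in all cis and cis SSP libraries, and library 1 of cis SSP and library 2 of cis SSP -SG differ from their neighbours.

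The comparison of untreated cis with wt cells asked how the genes differ at rest between resistant and sensitive cells. The largest differences were in purine synthesis, where PRPS2 was 3.83-fold and IMPDH1 2.78-fold higher in cis cells. Of the 36 members, 22 were called higher and 12 lower (adjusted p under 0.05), where 39.4% of all genes tested were higher and 39.1% lower. The median log2 difference of the members was 0.22, against -0.0041 over all genes tested. De novo purine genes had 9 higher and 3 lower members, pyrimidine genes 6 and 2, and dNTP genes 4 and 5.

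PRPS2, which makes phosphoribosyl pyrophosphate (ENSG00000101911, GRCh37 chrX:12809474-12842341), was at 89.9, 89.2 and 85.0 CPM in wt and at 339.6, 330.2 and 356 CPM in cis libraries. The log2 difference was 1.94 ± 0.03 (SE, n = 3 against 3) with an adjusted p of 1.15e-42 by the edgeR quasi-likelihood test with Benjamini-Hochberg adjustment. In every one of the 24 cis and cis SSP libraries PRPS2 was at or above 229 CPM, and in all 12 wt libraries at or below 89.9 CPM. Its isozyme PRPS1 was lower in cis than in wt cells by 0.13 ± 0.03 on the log2 scale. Per kb of transcript, PRPS1 exceeded PRPS2 in wt cells (65.2 against 35.7 CPM per kb), and the order was the opposite in cis cells (60.5 against 138.5 CPM per kb).

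IMPDH1 and IMPDH2 catalyse the step that commits IMP to guanine nucleotides. IMPDH1 was at 85.6, 89.8 and 89.6 CPM in wt and at 252.6, 247 and 248 CPM in cis libraries, a log2 difference of 1.48 ± 0.03. IMPDH2 was higher by 0.57 ± 0.02 and remained the more abundant form per kb, at 257 against 95.4 CPM per kb in cis cells. Among the other called members, PNP, which cleaves inosine and guanosine, was higher by 0.78 ± 0.04, SAMHD1, a dNTP hydrolase, by 0.65 ± 0.05, DHODH, the mitochondrial pyrimidine enzyme, by 0.58 ± 0.06, and CAD, which starts pyrimidine synthesis, by 0.50 ± 0.02. UPP1, uridine phosphorylase, was lower with a log2 difference of -0.79 ± 0.06, DCK, the deoxycytidine kinase, of -0.57 ± 0.05, and TYMS of -0.55 ± 0.03. Of the 14 replication and proliferation genes listed beside the members, 7 were higher and 5 lower.

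Compared with cis cells, cis SSP cells had lower IMPDH1, SAMHD1, GART, CMPK1, GMPS, PNP and CTPS1 and higher TYMS, DCK and RRM2, the small subunit of ribonucleotide reductase. These were 3 members called higher and 7 called lower, where 15.8% and 13.3% of all genes tested were. IMPDH1 fell to 175.9, 130.3 and 130.8 CPM, a log2 difference of -0.80 ± 0.13. RRM2 was at 353, 371 and 366 CPM against 259.1, 258.9 and 265 CPM in cis libraries, a log2 difference of 0.46 ± 0.10, and DCK was higher by 0.59 ± 0.09. Levels of DCK were 45.3 ± 1.77 CPM in cis SSP and 29.7 ± 0.35 CPM in cis libraries (SD, n = 3), beside 43.7 ± 2.22 CPM in the wt line, a difference that was not tested. In DCK and RRM2, as in the other members called here, no library of one line reached the values of the other. The share of all genes without such overlap was not computed, so this separation adds nothing to the calls. The first library of cis SSP decided the count. Without it, 7 members were called higher and 22 lower, where 32.9% and 32.5% of all genes tested were in that fit, among the members UPP1 at -1.09 and IMPDH1 at -0.92, and TYMS was higher by 0.54 instead of 0.76. Leaving out cis library 1, 2 or 3 left 3, 4 and 3 called members, where 14.3% to 14.6% of all genes were called, and leaving out cis SSP library 3 left 5, where 21.6% were.

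Carboplatin in wt cells, in complete medium, lowered most of the dNTP branch, while a few salvage, uridine and CTP genes rose. Of the 36 members, 25 were called lower and 9 higher, where 39% of all genes tested were lower and 38.9% higher. Their median log2 fold change was -0.45, against -0.00074 over all genes tested. The branches differed in size: the median was -1.07 over the 9 dNTP genes, -0.42 over the 12 de novo purine genes and -0.36 over the 8 pyrimidine genes.

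**Figure D2:**
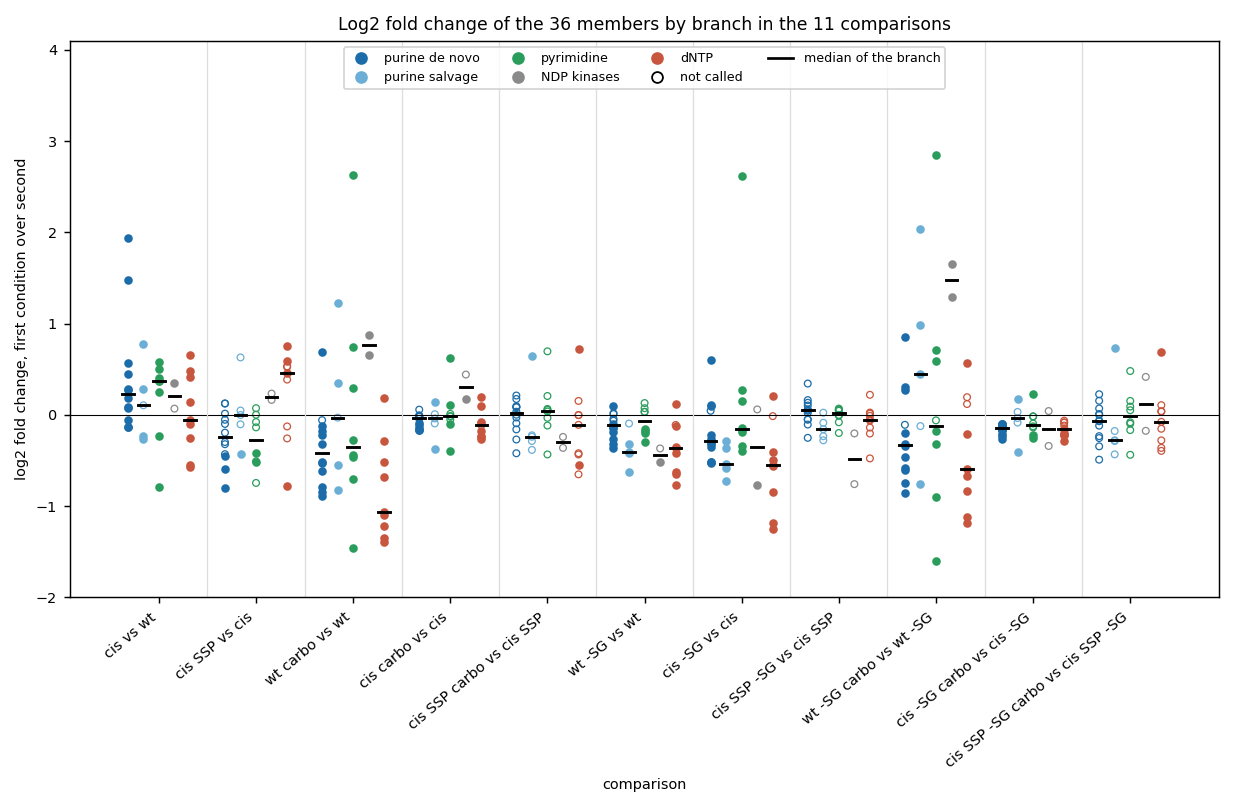
Log2 fold change of each member (points, first condition over second) in the 11 comparisons of condition pairs, coloured by branch. Filled points were called at an adjusted p under 0.05, open points were not, and black bars are branch medians. The dNTP genes lie lowest in wt carbo against wt, with a median of -1.07, and few points are filled in the comparisons of cis SSP cells.

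RRM1, the large subunit of ribonucleotide reductase (ENSG00000167325, GRCh37 chr11:4115937-4160162), was at 224, 220.3 and 217 CPM in wt and at 101.6, 103 and 104 CPM in wt carbo libraries. It fell 2.13-fold, with a log2 change of -1.09 ± 0.03 and an adjusted p of 1.56e-198 by the edgeR quasi-likelihood test with Benjamini-Hochberg adjustment. RRM2 went from 267, 268 and 269 CPM to 214, 224 and 217 CPM, a log2 change of -0.29 ± 0.02, so both subunits fell and RRM1 by more. Per kb, RRM2 and RRM1 stood at 82.2 and 70.2 CPM per kb in wt and at 67.0 and 32.8 CPM per kb with carboplatin. DUT, which keeps dUTP out of DNA, fell from 105, 108 and 102 CPM to 38.5, 41.6 and 39.0 CPM, and TK1, the cytosolic thymidine kinase, from 66.7, 65.2 and 65.2 CPM to 25.5, 24.7 and 26.8 CPM. Their log2 changes were -1.40 ± 0.04 and -1.35 ± 0.05. DCK followed with -1.21 ± 0.06, the thymidylate kinase DTYMK with -1.07 ± 0.05, TYMS with -0.68 ± 0.03 and SAMHD1, which removes dNTPs, with -0.52 ± 0.06. DCTD, the dCMP deaminase, was the only dNTP gene that rose, by 0.18 ± 0.03.

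The de novo purine genes fell less. PAICS, a bifunctional enzyme of the middle of the pathway, went from 679, 679 and 656 CPM to 361.5, 362.5 and 356 CPM, a log2 change of -0.89 ± 0.02. PFAS changed by -0.84 ± 0.03, IMPDH2 by -0.79 ± 0.02, PPAT, the first committed enzyme, by -0.62 ± 0.03 and GMPS by -0.53 ± 0.02. ATIC and GART, which use one-carbon units, fell by 0.32 and 0.22 on the log2 scale, and ADSL by 0.18. IMPDH1, at -0.06 ± 0.03, was not called. ADSS2, which takes IMP towards AMP, was the 1 member of 12 that rose, from 68.2, 66.3 and 67.0 CPM to 105, 107 and 111.5 CPM, a log2 change of 0.69 ± 0.03.

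In salvage, ADK, adenosine kinase, changed by -0.82 ± 0.06 and HPRT1, which recycles hypoxanthine and guanine, by -0.54 ± 0.04, whereas PNP rose from 60.3, 64.1 and 62.6 CPM to 144, 145.1 and 147 CPM. The log2 change of PNP was 1.23 ± 0.03. GUK1, guanylate kinase, rose by 0.35 ± 0.03, and APRT, at -0.03 ± 0.03, was not called. Outside salvage, the nucleoside diphosphate kinase NME1 rose by 0.87 ± 0.03.

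Among the pyrimidine genes the CTP synthases moved in opposite directions. CTPS1 rose from 173, 176 and 176.5 CPM to 290.2, 296 and 291 CPM (log2 change 0.75 ± 0.02), and CTPS2 fell from 28.45, 31.4 and 28.3 CPM to 10.5, 11.5 and 10.0 CPM (log2 change -1.46 ± 0.07). Per kb CTPS1 was already the more abundant form in wt cells, at 61.6 against 7.43 CPM per kb. UPP1, which splits uridine into uracil and ribose 1-phosphate (ENSG00000183696, GRCh37 chr7:48128225-48148333), showed the largest rise of the 36 members. It was at 31.3, 31.2 and 29.3 CPM in wt and at 191.9, 188.9 and 183 CPM in wt carbo libraries, a 6.18-fold rise with a log2 change of 2.63 ± 0.03. CAD changed by -0.70 ± 0.02, DHODH by -0.46 ± 0.07 and UCK2, a uridine-cytidine kinase, by -0.44 ± 0.02, and UMPS, the last de novo enzyme of UMP synthesis, rose by 0.30 ± 0.05.

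Proliferation genes moved with these changes. MKI67 went from 424 ± 11.6 to 104.7 ± 3.06 CPM, MCM2 from 287.5 ± 0.33 to 95.9 ± 3.12 CPM and E2F1 from 44.4 ± 1.32 to 14.6 ± 0.79 CPM, and 13 of the 14 replication and proliferation genes were called lower, with PCNA the 1 called higher. CDKN1A, a cell cycle inhibitor, rose from 140.3 ± 2.78 to 1777 ± 18.7 CPM. The part of proliferation in the fall of the dNTP genes was not tested, and in these bulk libraries fewer cycling cells and less RNA per cell cannot be told apart. Of the 49 other nucleotide genes listed, 38 were tested, 9 rose and 20 fell. Outside the members, AMPD3, an AMP deaminase with few counts, rose by 1.94 ± 0.28 and RRM2B, the alternative small subunit of ribonucleotide reductase, by 1.21 ± 0.03, while SHMT1, which moves one-carbon units from serine to folate, changed by -1.83 ± 0.06.

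In cis cells carboplatin changed the members little. Of the 36, 6 were called higher and 13 lower, where 9.27% of all genes tested were higher and 10.8% lower, and the changes ran from -0.39 to 0.63. UPP1 rose from 18.5, 16.6 and 18.9 CPM to 27.7, 26.2 and 28.4 CPM (log2 change 0.63 ± 0.07). RRM2 rose by 0.20 ± 0.03, NME1 by 0.18 ± 0.03 and PNP by 0.14 ± 0.03. CTPS2 changed by -0.39 ± 0.08, ADK by -0.37 ± 0.06 and DUT by -0.26 ± 0.04, and 5 of the 12 de novo purine genes were called lower, by at most 0.16. MKI67, at 733 ± 35.2 and 673 ± 67.9 CPM, was not called, and 8 of the 14 replication and proliferation genes were lower.

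The difference between these responses was tested by an interaction term over the 4 conditions. It was called for 30 of the 36 members, 23 with a higher and 7 with a lower response in cis than in wt cells, where 30.3% and 27.2% of all genes tested were called in these directions. For RRM1 the response differed by 1.01 ± 0.04 (edgeR quasi-likelihood test, Benjamini-Hochberg adjusted p = 1.25e-31), for DUT by 1.14 ± 0.06 and for UPP1 by -1.99 ± 0.08. Of the dNTP genes 8 of 9 were called, all with a higher response in cis cells, and of the de novo purine genes 8 had a higher and 1 a lower response. DCTD, PRPS2, IMPDH1, ADSL, APRT and NME2 were not called.

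**Figure D3:**
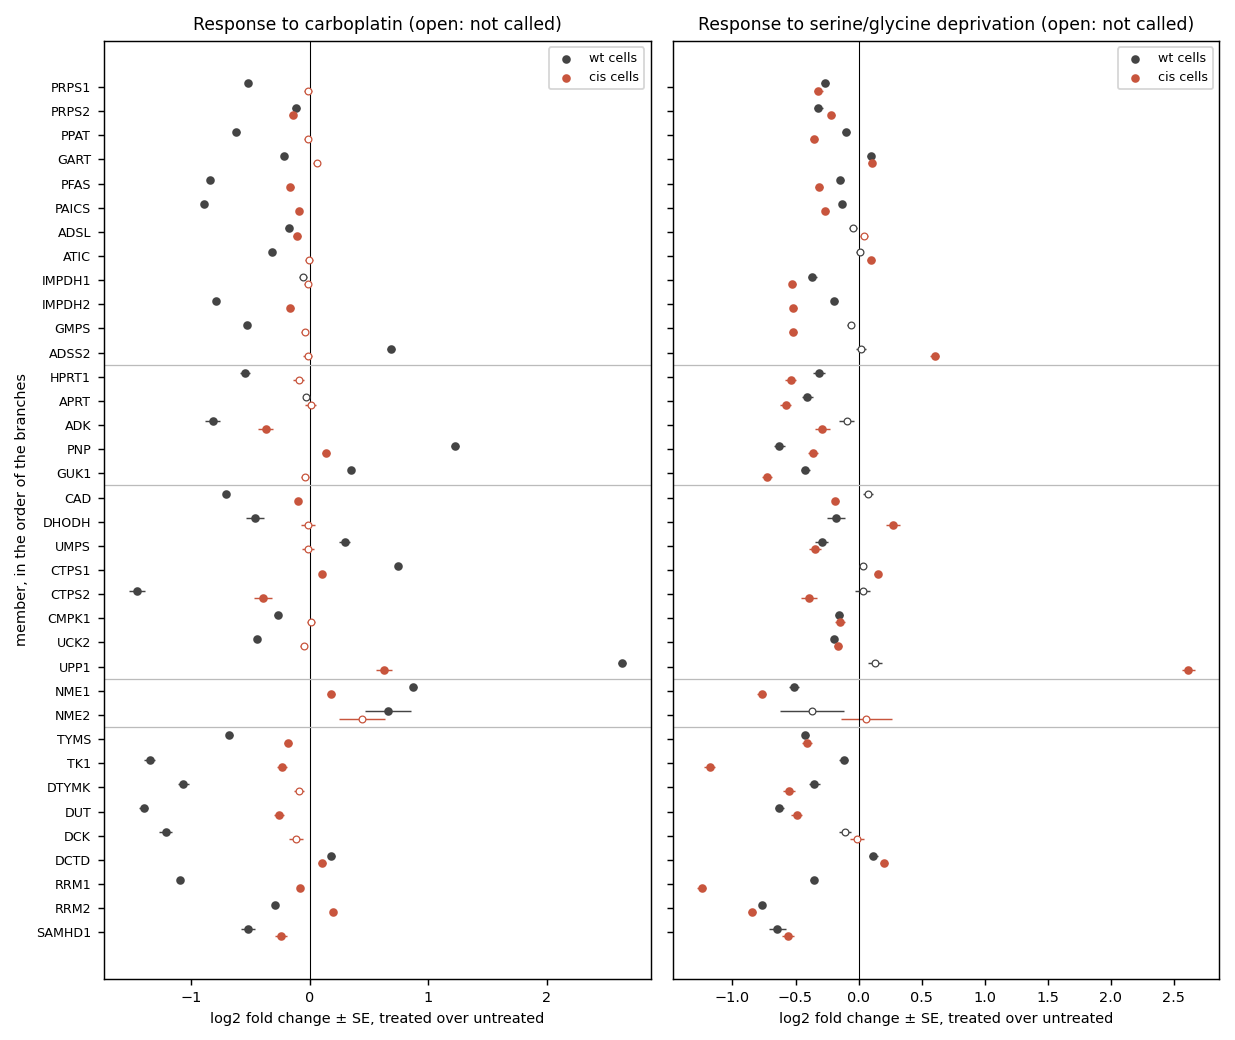
Log2 fold change of each member (rows, in the order of the branches) in wt and cis cells, with SE as horizontal bars, for carboplatin (left) and for serine/glycine deprivation (right). Open points were not called. With carboplatin the points of wt cells spread from -1.46 to 2.63 and those of cis cells from -0.39 to 0.63, while under deprivation cis cells spread from -1.25 to 2.62.

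Carboplatin in cis SSP cells gave 2 members called higher, RRM2 and PNP, and 1 lower, SAMHD1, where 1.97% of all genes tested were higher and 0.749% lower (60.3% of the called genes were higher with total counts as library sizes). RRM2 went from 353, 371 and 366 CPM to 579, 592 and 584 CPM, the highest of the 12 conditions together with cis SSP -SG carbo, and its log2 change was 0.72 ± 0.09 (edgeR quasi-likelihood test, Benjamini-Hochberg adjusted p = 0.0187). RRM1 stayed at 219, 227 and 225 CPM with a log2 change of -0.00068 ± 0.09, so that RRM2 stood at 179.5 and RRM1 at 71.3 CPM per kb. PNP rose by 0.64 ± 0.11, and SAMHD1 changed by -0.55 ± 0.09. The call rested on the libraries: without cis SSP library 1, 13 members were higher and 8 lower, where 21.9% and 19.2% of all genes tested were, UPP1 among the members at 1.06 and CTPS1 at 0.28, and leaving out any other library of the 6 left 0 members called, where at most 0.46% of all genes were, with RRM2 between 0.71 and 0.74. CDKN1A rose by 2.70 ± 0.11 in these cells.

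Without serine and glycine 7 of the 9 dNTP genes were called lower in wt and 7 in cis cells, with DCTD called higher and DCK not called in both, and of the 5 salvage genes 4 were lower in wt cells and 5 in cis cells. In wt cells 23 members were called lower and 2 higher, where 25.1% of all genes tested were lower and 24.1% higher. RRM2 fell from 267, 268 and 269 CPM to 159, 157 and 155.5 CPM, a log2 change of -0.77 ± 0.03. SAMHD1 changed by -0.65 ± 0.07, PNP and DUT by -0.63 ± 0.04 each, NME1 by -0.51 ± 0.04 and RRM1 by -0.36 ± 0.03. Of the 12 de novo purine genes 7 were lower, among them IMPDH1 at -0.37 ± 0.04 and IMPDH2 at -0.19 ± 0.03, while GMPS, at -0.06 ± 0.03, was not called. GART and DCTD rose by 0.10 and 0.12, and UPP1, at 0.13 ± 0.05, was not called. Of the replication and proliferation genes 13 of 14 were lower.

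In cis cells 26 members fell and 7 rose, where 37.4% and 37.6% of all genes tested did. RRM1 went from 245.5, 241.6 and 254 CPM to 95.2, 103 and 101.4 CPM, a log2 change of -1.25 ± 0.03 (edgeR quasi-likelihood test, Benjamini-Hochberg adjusted p = 2.93e-33), TK1 from 88.0, 86.6 and 91.2 CPM to 37.5, 38.4 and 36.4 CPM, and RRM2 from 259.1, 258.9 and 265 CPM to 139, 142 and 137 CPM. The log2 changes of TK1 and RRM2 were -1.18 ± 0.04 and -0.84 ± 0.03. UPP1 rose from 18.5, 16.6 and 18.9 CPM to 104, 104.6 and 107 CPM, 6.12-fold with a log2 change of 2.62 ± 0.05, and ADSS2 by 0.61 ± 0.04. NME1 changed by -0.77 ± 0.04, GUK1 by -0.72 ± 0.04 and HPRT1 and APRT by -0.54 ± 0.04 and -0.58 ± 0.04. In the guanine branch IMPDH1, IMPDH2 and GMPS each changed by -0.52, whereas GART and ATIC rose by 0.11 and 0.10, with overlapping libraries. DCK was at -0.01 ± 0.06. MKI67 went from 733 ± 35.2 to 172 ± 4.64 CPM, and 13 of the 14 replication and proliferation genes were lower, their part in the result not being tested. Of the 39 other nucleotide genes tested 15 rose and 18 fell.

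The deprivation response differed between cis and wt cells for 25 members, 10 higher and 15 lower in cis cells, where 27.1% and 26.9% of all genes tested were called. It differed for UPP1 by 2.50 ± 0.07 and for TK1 by -1.05 ± 0.06. RRM2, named after its values were seen, was not called, with a difference of -0.06 ± 0.04. Cells of the cis SSP line showed 0 called members in either direction without serine and glycine, where 0.0218% of all genes tested were higher and 0% lower by the edgeR quasi-likelihood test, with 2 members at an unadjusted p under 0.05 and 0 called by DESeq2. RRM1 was at 245, 221 and 223 CPM in cis SSP and at 207, 218 and 197 CPM in cis SSP -SG libraries, RRM2 at 364 ± 9.37 and 368 ± 10.8 CPM. UPP1 was at 16.3, 7.96 and 8.74 CPM in cis SSP and at 7.49, 17.4 and 9.14 CPM in cis SSP -SG libraries, with the high value in each case in the library that stood apart. Without library 1 of cis SSP and library 2 of cis SSP -SG, 7 members were higher and 11 lower, where 18.9% and 17% of all genes tested were, led by NME2, which had few counts, at -1.05, SAMHD1 at -0.51 and GART at 0.37, while RRM2 was at 0.03 and UPP1 at -0.0036.

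The difference of the deprivation response between cis SSP and cis cells was called for 7 members, 5 higher (GMPS, PAICS, CTPS2, RRM1 and RRM2) and 2 lower (UPP1 and ADSS2), where 6.86% of all genes tested were higher and 10.3% lower. UPP1 differed by -2.55 ± 0.45 and RRM1 by 1.12 ± 0.11. With total counts as library sizes 28.6% of all called genes were higher in this test, and the median of all genes moved by -0.11. RRM2 (0.88 ± 0.10) and TK1 are named after their values were seen. TK1 differed by 1.13 ± 0.36 and was not called, and it was called at 1.10 without the 2 libraries that stood apart, where 24 members were higher and 4 lower beside 28.8% and 26.6% of all genes tested.

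**Figure D4:**
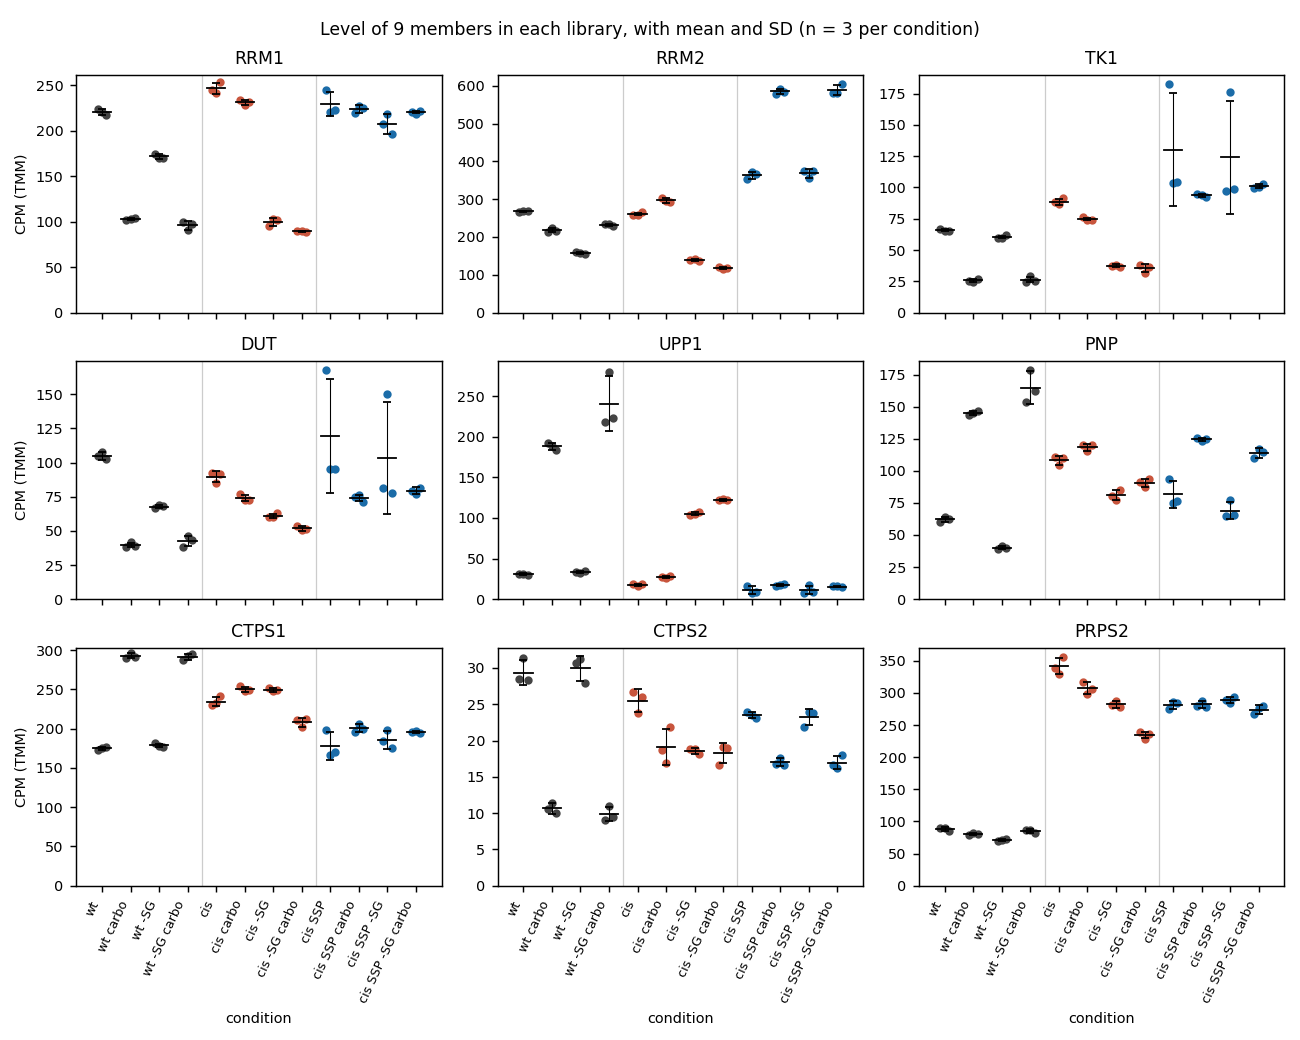
CPM of 9 members in each library (points) by condition, with the mean (bar) and SD (whisker) of 3 libraries. Grey points are wt, red cis and blue cis SSP cells, and each panel's axis starts at 0. RRM1 is low in wt carbo, wt -SG carbo and both cis conditions without serine and glycine, RRM2 is highest in cis SSP cells with carboplatin, and PRPS2 separates wt from the other lines.

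Carboplatin given to wt cells without serine and glycine raised 12 members and lowered 19, where 34.3% and 34.6% of all genes tested moved in these directions. UPP1 went from 34.04, 31.8 and 34.5 CPM to 218.5, 279 and 223 CPM and PNP from 39.3, 41.6 and 39.8 CPM to 153, 178.5 and 162 CPM, log2 changes of 2.85 ± 0.10 and 2.04 ± 0.07. NME1 rose by 1.66 ± 0.09, GUK1 by 0.98 ± 0.08, ADSS2 by 0.86 ± 0.06, CTPS1 by 0.71 ± 0.05 and RRM2, in contrast to its fall in complete medium, by 0.57 ± 0.05. RRM2 thus stood at 232.5 ± 2.60 CPM in wt -SG carbo and 218 ± 5.44 CPM in wt carbo cells, and the difference between both responses of RRM2 was not tested. CTPS2 changed by -1.60 ± 0.09, TK1 by -1.19 ± 0.07, DCK by -1.11 ± 0.07 and RRM1 by -0.84 ± 0.06. Library 2 of wt -SG carbo, which stood apart, held the highest values of UPP1, PNP, NME1 and GUK1.

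In cis cells without serine and glycine carboplatin gave 2 members called higher and 20 lower, where 10.9% of all genes tested were higher and 11.6% lower (61.1% of the called genes were higher with total counts as library sizes). All 12 de novo purine genes were called lower, with log2 changes from -0.26 to -0.10. These changes were small and the calls depended on the fit, since 9 of the 12 were called lower by DESeq2, 6 with total counts as library sizes, 5 without libraries 2 and 3 of cis -SG carbo and 3 in one fit over the 36 libraries. UPP1 rose from 104, 104.6 and 107 CPM to 121.6, 123.4 and 121.9 CPM (0.23 ± 0.03) and PNP by 0.17 ± 0.04, while ADK changed by -0.40 ± 0.06, DTYMK by -0.28 ± 0.05 and RRM2 by -0.22 ± 0.03. Leaving out cis -SG library 2 or 3 or cis -SG carbo library 3 left 13, 14 and 13 called members, where 11.9%, 13% and 11.3% of all genes were called. Libraries 2 and 3 of cis -SG carbo had 17.9% and 14.9% of counts on no feature, against at most 9.31% elsewhere, and without both 3 members were higher and 12 lower, where 7.61% and 6.91% of all genes tested were. Against complete medium the carboplatin response of cis cells differed for 8 members, 1 higher (CTPS2, by 0.38 ± 0.11) and 7 lower, where 5.91% and 6.17% of all genes tested were called. The lower responses were those of GART, PAICS, CTPS1, UCK2, UPP1, DCTD and RRM2, and 19 members were called without cis -SG carbo library 1, where 23.4% of all genes tested were. With total counts as library sizes 62.5% of all called genes were higher in this test.

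In cis SSP cells without serine and glycine carboplatin raised 2 members and lowered 0, where 1.17% of all genes tested were higher and 0.295% lower. RRM2 rose from 374, 356 and 375 CPM to 581.5, 579.9 and 605 CPM (0.69 ± 0.09) and PNP by 0.74 ± 0.11. Leaving out cis SSP -SG library 2 left 14 members higher and 9 lower, where 21.1% and 19.9% of all genes tested were, with UPP1 at 0.93 and CTPS2 at -0.40, and leaving out any other library left 0 members called, where at most 0.0291% of all genes were, with RRM2 between 0.68 and 0.71. The comparisons of a line share their untreated libraries, so their values for a member are not independent of each other.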

How the data were processed

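RNA of 36 libraries was sequenced by the authors as single reads from total RNA libraries after mRNA purification. Per the labels and the study's methods, the authors used STAR for alignment (GRCh37.p13) and HTSeq with GENCODE v19 for counting reads at exons, and deposited raw counts per gene. The strand setting and the treatment of reads with several alignments are not given in the sources used here. Rows naming no gene stayed out of library sizes and tests, with reads on no feature amounting to between 4.21% and 17.9% of a library.

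Counts were analysed in edgeR 4.0.16 (R 4.3.3) with filterByExpr, TMM, glmQLFit and glmQLFTest on the libraries of each comparison. Genes with a Benjamini-Hochberg adjusted p under 0.05 over all genes tested were called. SE is the log2 fold change over the root of F. Responses were compared by interaction terms. Alternatives were the Wald test of DESeq2 1.42.0, its size factors, total counts, no filter, one fit over the 36 libraries and left-out libraries. Leaving out libraries 2 and 3 of cis -SG carbo was added after seeing the data. Groups came from the labels, and library pairs within a condition differed by more than sampling noise. The fits were tested on simulated data, which held no library deviating with transcript length, so the test does not cover the libraries that stood apart. Symbols came from GENCODE v44 on GRCh37 and matched 55538 of 57820 identifiers. Tables and plots used Python 3.11.15, pandas 2.3.3 and matplotlib 3.10.9.

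The 36 members and all gene lists were chosen with earlier results of these data known. De novo purine genes were PRPS1, PRPS2, PPAT, GART, PFAS, PAICS, ADSL, ATIC, IMPDH1, IMPDH2, GMPS and ADSS2. Purine salvage genes were HPRT1, APRT, ADK, PNP and GUK1. Pyrimidine genes were CAD, DHODH, UMPS, CTPS1, CTPS2, CMPK1, UCK2 and UPP1. NME1 and NME2 were the nucleoside diphosphate kinases. The dNTP genes were TYMS, TK1, DTYMK, DUT, DCK, DCTD, RRM1, RRM2 and SAMHD1. Of the 49 other nucleotide genes, no more than the 2 called genes that changed most in a direction of a comparison are named. Depth, 13074937 to 20441582 counts per library, sets the counting error.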

Additional observations from a re-analysis of the deposited data

Results flagged for a closer look

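Of the 36 members, 11 differences between the responses of 2 lines were flagged because an interaction term was called and its size was at least 1 on the log2 scale. The response to carboplatin differed between cis and wt cells, given as cis minus wt, by -1.99 ± 0.08 for UPP1, by 1.14 ± 0.06 for DUT, by 1.12 ± 0.06 for TK1, by 1.11 ± 0.08 for DCK, by -1.08 ± 0.05 for PNP, by 1.07 ± 0.11 for CTPS2 and by 1.01 ± 0.04 for RRM1 (SE, 3 libraries in each of 4 conditions). The fall of DUT, TK1, CTPS2 and RRM1 and the rise of UPP1 and PNP were thus smaller in cis than in wt cells, while DCK fell in wt cells and was not called in cis cells.

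The response to serine/glycine deprivation differed between cis and wt cells by 2.50 ± 0.07 for UPP1 and by -1.05 ± 0.06 for TK1, and between cis SSP and cis cells by -2.55 ± 0.45 for UPP1 and by 1.12 ± 0.11 for RRM1. With 3 libraries per condition no single value was tested as an outlier within its condition.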

How the results depend on the processing

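No paired analysis was possible because the labels give no replicate numbers within a condition. One fit over the 36 libraries moved the count of called members to 22 for cis against wt, 21 for cis SSP against cis, 3 for cis carbo against cis, 11 for cis SSP carbo against cis SSP, 12 for wt -SG against wt, 4 for cis SSP -SG against cis SSP, 7 for cis -SG carbo against cis -SG, 8 for cis SSP -SG carbo against cis SSP -SG, 8 and 14 for the deprivation responses of cis minus wt and cis SSP minus cis, and 2 for the carboplatin response of cis cells between media. Without a filter the counts were 1 for carboplatin in cis SSP cells in either medium, 4 for the deprivation response of cis SSP minus cis and 4 for the carboplatin response of cis cells between media. The share of all genes called in the single fit or without a filter was not computed, so these counts cannot be set against it. Without library 1 of cis SSP and library 2 of cis SSP -SG the counts were 18 for cis SSP -SG against cis SSP and 28 for the deprivation response of cis SSP minus cis, where 35.9% and 55.4% of all genes tested were called. With 1 library left out, counts ran from 3 to 29 for cis SSP against cis, from 0 to 21 for cis SSP carbo against cis SSP, from 0 to 23 for cis SSP -SG carbo against cis SSP -SG, from 13 to 26 for cis -SG carbo against cis -SG and from 6 to 19 for the carboplatin response of cis cells between media. In the same order, the called share of all genes tested ran from 14.3% to 65.4%, from 0.0636% to 41.2% and from 0% to 41.1% for the cis SSP comparisons. For cis -SG carbo it ran from 11.3% to 34.7%, and for the response between media from 8.75% to 23.4%. The cause was not tested. The 283 calls of a member in a comparison kept their direction under every alternative run on them, and 259 were called by DESeq2, 186 in the single fit and 258 without a filter. Total counts shifted the median of all genes by -0.11 for the deprivation response of cis SSP minus cis and by at most 0.07 elsewhere.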

Other observations

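Other nucleotide genes also separated the lines. DPYD, which degrades uracil and thymine, had a level of 22.9 ± 1.47 CPM in wt libraries but 0.262 ± 0.11 CPM in cis libraries, and was listed at 0 in all 3 libraries of cis SSP. GMPR, GMP reductase, and CMPK2, a mitochondrial nucleotide kinase, differed in the other direction at low levels: GMPR was listed at 0 in all 3 libraries of wt and at 0.864 ± 0.28 CPM in cis libraries, and CMPK2 had 0 or 1 count in a wt library and 20 to 29 counts in a cis library. NT5C2, a nucleotidase that acts on IMP and GMP, was at 259 ± 9.55 CPM in cis and at 32.98 ± 12.5 CPM in cis SSP libraries, and the log2 difference was -2.98 ± 0.33. CDA, cytidine deaminase, was higher in cis SSP than in cis cells by 3.01 ± 0.42, with 26 to 33 counts against 1 to 5 counts in a library. RRM2B was called higher after carboplatin in all 3 lines and in both media, by log2 changes of 0.49 to 1.32. In cis SSP -SG carbo against cis SSP -SG, leaving out any single carboplatin library left 0 genes called, so RRM2B was not called. With a single cis SSP carbo library left out in complete medium, at most 0.155% of all genes were called.

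Without serine and glycine, NME4, a mitochondrial nucleoside diphosphate kinase, went from 149 ± 0.47 to 46.8 ± 1.80 CPM in cis cells, and SLC29A2, a nucleoside transporter, from 150.6 ± 2.56 to 58.7 ± 2.26 CPM, log2 changes of -1.61 ± 0.04 and -1.30 ± 0.04. NT5E, a surface nucleotidase, went up from 0.0613 ± 0.07 to 1.30 ± 0.21 CPM. In wt cells AK4, a mitochondrial adenylate kinase, changed by -1.11 ± 0.09 under deprivation and rose by 2.02 ± 0.09 when carboplatin was added to deprived cells, where AMPD3 rose by 3.14 ± 0.25 from 5 to 8 counts in a library to 47 to 53 counts.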
